A study of Mus musculus with 12 samples.

Results

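The collagen genes of the mouse were followed here across 3 kinds of brain tumour and normal cortex. Members were all symbols of the count tables made of Col, a number, the letter a and a second number, which gave 44 of 24421 genes. All 44 passed the filter on low counts, so each was tested among 16364 genes. By class they comprised 11 fibrillar chains, 6 basement membrane chains, 3 network chains, 6 beaded filament chains, the anchoring fibril chain Col7a1, 9 chains of the FACIT type, 4 transmembrane chains, 2 multiplexins and 2 chains left unclassed, Col28a1 and Col26a1. Bulk RNA was sequenced from 3 libraries in each of 4 groups. The tumour groups, YAP1-TFE3, YAP1-FAM118B and also YAP1-MAMLD1-dR3R1, were whole tumours raised in mouse brain by injecting RCAS, an avian retroviral vector that carries a gene into cells of a living animal, with the named fusion of the Hippo pathway co-activator YAP1. Naive samples came from normal cortex of animals that had no injection. The series as a whole compares what the fusions have in common. The labels give neither mouse strain, age nor the cells the virus entered, and they do not explain the suffix dR3R1. They also name the tissue of the naive samples as tumour and describe RNA extraction from cell cultures, while the source fields and design text describe cortex and frozen tumours.

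Collagens are secreted proteins whose chains wind into triple helices, and each chain has its own gene. Fibrillar collagens such as types I, III and V assemble into the fibres of connective tissue, type IV forms the sheet-like network of basement membranes around vessels and at the brain surface, and type VI forms beaded filaments between them. FACIT collagens sit on the surface of fibrils, network collagens of types VIII and X form hexagonal lattices, transmembrane collagens stay anchored in the cell membrane, and multiplexins join basement membrane zones to fibrils. In normal brain parenchyma fibrillar collagen is sparse and largely kept to meninges and larger vessels.

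Each library held from 19850220 to 24760814 counts. Levels are CPM, counts scaled to a common library size after TMM, in the order of replicates 1, 2 and 3. Nothing in the labels ties each library to an animal of its own, so a p-value here reflects how far these samples scatter, and that scatter may be technical. In bulk tissue fewer cells of a type and less RNA per cell cannot be told apart. The 10 neuronal markers summed to 38.8 to 1215 CPM in YAP1-TFE3, 5353 to 7755 CPM in YAP1-FAM118B tumours and 104 to 1703 CPM in YAP1-MAMLD1-dR3R1 tumours, against 9101 to 13474 CPM in naive libraries. Choroid plexus genes varied between libraries of a group, from 11.6 to 1729 CPM in naive cortex alone. Counts of both Xist and Y-linked genes were found in naive replicate 2 and YAP1-FAM118B replicate 2, the mixed-signal libraries left out together where stated.

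Collagen RNA made up a far larger share of the tumours than of cortex. The 44 genes took 0.286 ± 0.0870% of all counts in YAP1-TFE3, 2.28 ± 1.28% in YAP1-FAM118B tumours and 1.19 ± 0.237% in YAP1-MAMLD1-dR3R1 tumours, against 0.0446 ± 0.00765% in naive cortex (SD, n = 3 each). No tumour library overlapped the naive range, and the YAP1-TFE3 tumours, with 0.198 to 0.372%, lay below every library of the other tumours, which had 0.905 to 3.44% in YAP1-FAM118B tumours and 0.918 to 1.37% in YAP1-MAMLD1-dR3R1. Expressed per kilobase of transcript, the chain at the top of the order was Col9a3 in YAP1-TFE3 tumours, at 139 ± 56.4 CPM per kb, followed by Col1a2 at 138 ± 116, which did not differ beyond their spread. In YAP1-FAM118B tumours the order began with Col1a2 at 1069.6 ± 609, Col1a1 at 520.2 ± 372 and Col3a1 at 456 ± 370.5 CPM per kb. Col1a2 also led in YAP1-MAMLD1-dR3R1 tumours, at 489 ± 77.2, ahead of Col5a2 at 231 ± 43.5 and Col1a1 at 197 ± 85.4 CPM per kb. In naive cortex the neuronal transmembrane collagen Col25a1 stood first, at 14.9 ± 4.88 CPM per kb, and Col9a3 followed at 5.90 ± 1.75.

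**Figure D1:**
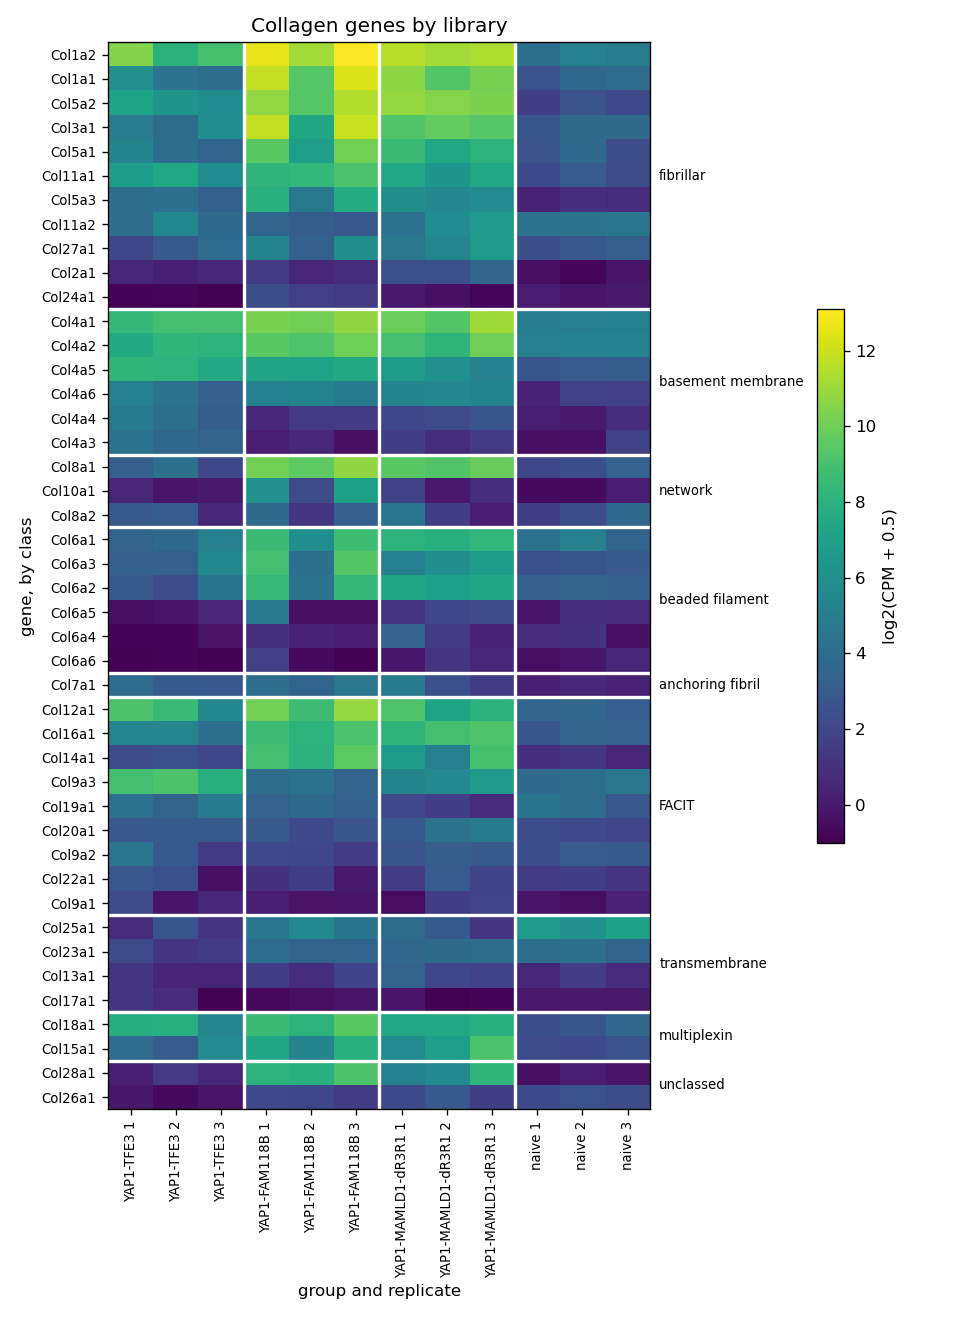
Heat map of all 44 collagen genes (rows, by class and within a class by mean level) in the 12 libraries (columns), coloured by log2(CPM + 0.5). The rows of Col1a1, Col1a2, Col3a1, Col5a2, Col6a1 and Col8a1 are brighter in every YAP1-FAM118B and YAP1-MAMLD1-dR3R1 column than in the naive columns, and YAP1-FAM118B replicate 2 is darker than replicates 1 and 3 in 8 of 11 fibrillar rows and in those of Col6a1, Col6a2 and Col6a3.

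Counts of called genes put the breadth of the response beside the rest of the transcriptome. Each call is an edgeR quasi-likelihood test with a Benjamini-Hochberg adjusted p under 0.05 over all genes tested. In YAP1-TFE3 tumours 17 of 44 collagen genes were higher and 6 lower than in naive cortex, where 40.6% of all genes were higher and 30% lower, so the 38.6% of collagens called higher lay near the background. In YAP1-FAM118B tumours 26 were higher and 0 lower, beside 21.3% and 8.45% of all genes. At an unadjusted p under 0.05 edgeR gave 27 and 0, DESeq2 gave 26 and 0 after adjustment, and 3 were lower with only the groups compared in the fit. In YAP1-MAMLD1-dR3R1 tumours 29 were higher and 2 lower, beside 34.4% and 28.8%. The median log2 fold change of the 44 genes was 1.55, 3.88 and 3.35 in the order YAP1-TFE3, YAP1-FAM118B, YAP1-MAMLD1-dR3R1, against 0.23, -0.05 and 0.06 over all genes tested. The same 14 collagens were higher in every fusion, namely Col1a2, Col2a1, Col5a2, Col5a3, Col11a1, Col4a1, Col4a2, Col4a5, Col4a6, Col7a1, Col12a1, Col16a1, Col15a1 and Col18a1 (background 18.6%). These comparisons share the naive libraries.

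**Figure D2:**
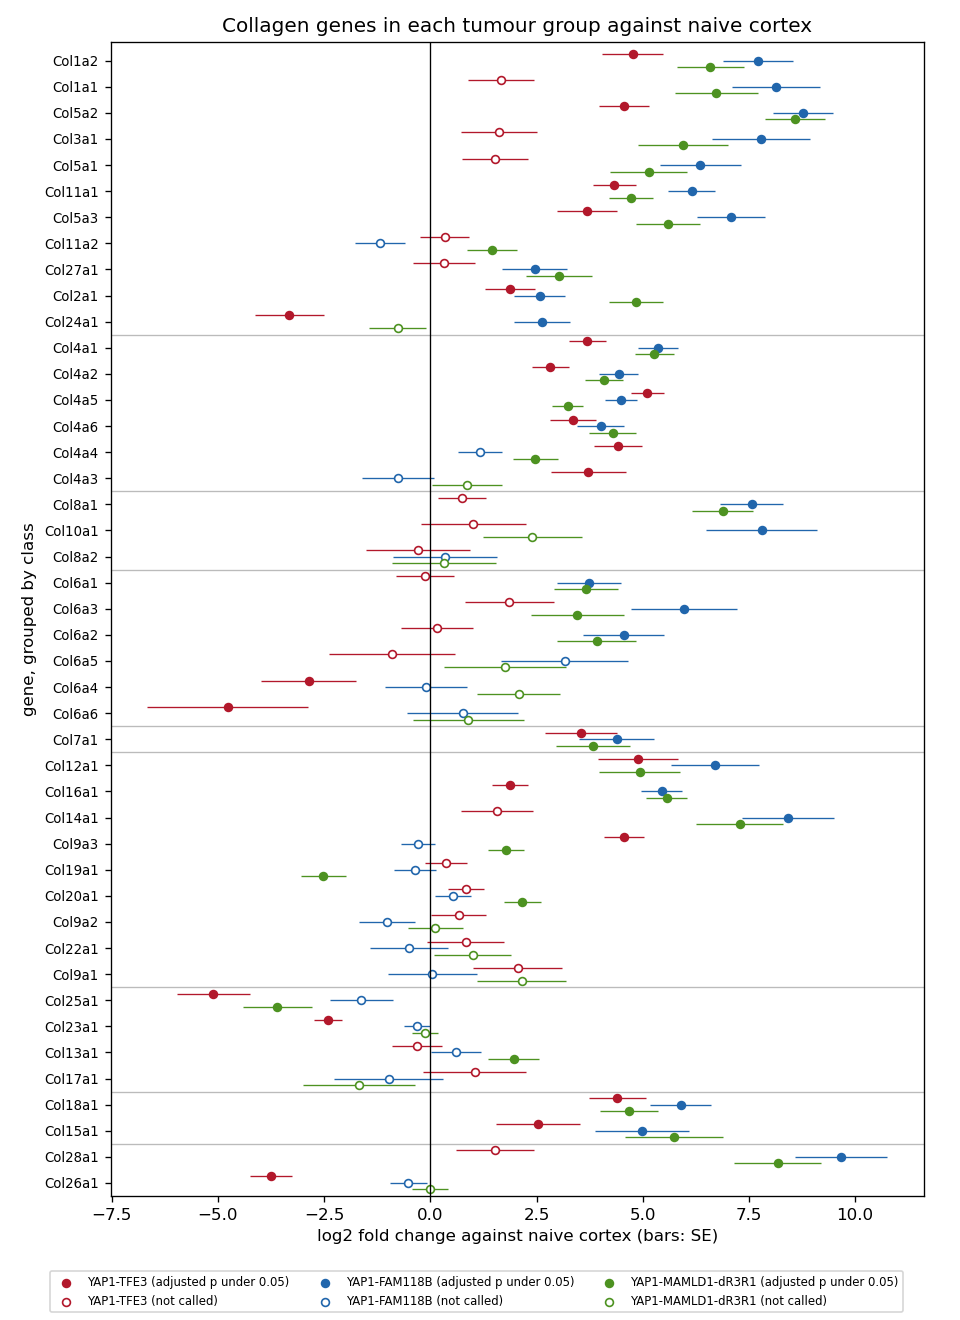
Log2 fold change against naive cortex (x axis, bars are approximate SE derived from the edgeR F statistic) for each collagen gene (y axis, grouped by class) in YAP1-TFE3, YAP1-FAM118B and also YAP1-MAMLD1-dR3R1 tumours. Filled points passed an adjusted p under 0.05. YAP1-TFE3 points lie near 0 for Col8a1, Col6a1 and Col6a2, where those of the other tumours lie between 3.67 and 7.56, and to the right of them for Col4a3 and Col9a3; the YAP1-TFE3 points of Col24a1 and Col6a6 rest on 3 counts and 1 count.

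Fibrillar collagens are the genes of the fibres of skin, tendon and bone. Of these, 10 of 11 were higher than in naive cortex in YAP1-FAM118B tumours (beside 21.3% of all genes) and 10 in YAP1-MAMLD1-dR3R1 tumours (34.4%). In YAP1-TFE3 tumours 5 were higher and 1 lower, beside 40.6% and 30% of all genes. The 45.5% called higher there lay near the background. The summed level was 1865, 634 and 744 CPM in YAP1-TFE3, 16376, 4253 and 22352 CPM in YAP1-FAM118B, 7829, 5612 and 6418 CPM in YAP1-MAMLD1-dR3R1 and 66.1, 117 and 105 CPM in naive libraries. The median log2 fold change of the class was 1.67, 6.35 and 5.14 in the order YAP1-TFE3, YAP1-FAM118B, YAP1-MAMLD1-dR3R1. Col1a1 and Col1a2 encode the chains of type I collagen, the main protein of connective tissue fibres. Col1a1 was at 68.9, 19.9 and 15.8 CPM in YAP1-TFE3, 3624, 660.2 and 4969 CPM in YAP1-FAM118B, 1656, 645 and 1202 CPM in YAP1-MAMLD1-dR3R1 and 5.29, 12.9 and 14.7 CPM in naive libraries. Col1a2 was at 1437, 266 and 504 CPM in YAP1-TFE3, 6131, 2276 and 8752 CPM in YAP1-FAM118B, 3041, 2217 and 2581 CPM in YAP1-MAMLD1-dR3R1 and 17, 34.5 and 29.6 CPM in naive libraries. Every tumour library of both genes lay above every naive library, and YAP1-TFE3 lay below the other tumours. The log2 fold changes of Col1a1 were 8.13 ± 1.04 in YAP1-FAM118B (edgeR adjusted p = 3.30e-04) and 6.73 ± 0.98 in YAP1-MAMLD1-dR3R1 tumours (edgeR adjusted p = 2.45e-04). In YAP1-TFE3 tumours Col1a1 differed from naive by 1.67 ± 0.78 and did not pass (edgeR adjusted p = 0.0797), although its lowest library, 15.8 CPM, lay above the highest naive library. Col1a2 was raised there by 4.76 ± 0.72 (edgeR adjusted p = 2.29e-04), in YAP1-FAM118B by 7.72 ± 0.82 (edgeR adjusted p = 1.22e-04) and in YAP1-MAMLD1-dR3R1 tumours by 6.59 ± 0.78 (edgeR adjusted p = 7.74e-05). YAP1-TFE3 replicate 1 stood above the other libraries of its group for both genes. The YAP1-TFE3 change of Col1a2 was 3.63 without YAP1-TFE3 replicate 1.

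Col3a1, the chain of type III collagen in vessel walls and loose connective tissue, split the tumours. Col3a1 was at 30.5, 15.3 and 60.3 CPM in YAP1-TFE3, 3552, 165 and 3893 CPM in YAP1-FAM118B, 625, 841 and 673 CPM in YAP1-MAMLD1-dR3R1 and 6.16, 14.2 and 14.2 CPM in naive libraries. YAP1-FAM118B replicate 2 lay far below its partners but above every YAP1-TFE3 and naive library. Col3a1 was higher than in naive cortex by 7.78 ± 1.16 in YAP1-FAM118B (edgeR adjusted p = 8.10e-04) and 5.95 ± 1.07 in YAP1-MAMLD1-dR3R1 tumours (edgeR adjusted p = 8.82e-04), whereas in YAP1-TFE3, whose libraries lay above the naive ones, the difference of 1.62 ± 0.89 did not pass (edgeR adjusted p = 0.125; 0.0269 without the mixed-signal pair of libraries). Type V collagen starts and thins such fibrils, and its genes differed in the same comparison. Col5a2 was at 145, 77.9 and 57.1 CPM in YAP1-TFE3, 1777, 672 and 2792 CPM in YAP1-FAM118B, 1832, 1499 and 1258 CPM in YAP1-MAMLD1-dR3R1 and 2.54, 5.49 and 3.87 CPM in naive libraries. Col5a1 was at 40.8, 16.4 and 11.3 CPM in YAP1-TFE3, 720.0, 116 and 1114 CPM in YAP1-FAM118B, 389.5, 173 and 279 CPM in YAP1-MAMLD1-dR3R1 and 5.5, 13.9 and 4.49 CPM in naive libraries. Col5a3 was at 16.9, 17.3 and 9.75 CPM in YAP1-TFE3, 229, 25.6 and 207 CPM in YAP1-FAM118B, 63.6, 45.9 and 56 CPM in YAP1-MAMLD1-dR3R1 and 0.780, 1.34 and 1.28 CPM in naive libraries. For Col5a2 all tumour libraries lay above all naive libraries, and those of YAP1-TFE3 lay below those of the other tumours. Col5a2 rose by 4.56 ± 0.59 in YAP1-TFE3, 8.78 ± 0.71 in YAP1-FAM118B tumours and 8.59 ± 0.70 in YAP1-MAMLD1-dR3R1 tumours (edgeR adjusted p = 8.30e-05, 2.96e-05 and 1.19e-05). Col5a1 rose in YAP1-FAM118B and YAP1-MAMLD1-dR3R1 tumours by 6.35 ± 0.96 and 5.14 ± 0.90 (edgeR adjusted p = 8.77e-04 and 7.91e-04). Its YAP1-TFE3 libraries overlapped the naive range and did not pass, at 1.52 ± 0.78 (edgeR adjusted p = 0.105; 0.0137 without the mixed-signal pair of libraries). Col5a3 was higher in each tumour group, by 3.69 ± 0.70 in YAP1-TFE3, 7.08 ± 0.80 in YAP1-FAM118B tumours and 5.60 ± 0.75 in YAP1-MAMLD1-dR3R1 (edgeR adjusted p = 9.72e-04, 1.59e-04 and 1.52e-04). With 1 library left out, the YAP1-TFE3 change of Col5a2 was 3.93 without YAP1-TFE3 replicate 1, and Col5a1 was 7.02 without naive replicate 2 and 5.72 without YAP1-FAM118B replicate 3 in YAP1-FAM118B tumours and 5.81 without naive replicate 2 in YAP1-MAMLD1-dR3R1 tumours. Col3a1 (chromosome 1, 45311538 to 45349706) and Col5a2 (chromosome 1, 45374331 to 45503282, GRCm38) are neighbours on opposite strands, 24624 bases apart, yet only Col5a2 was called in YAP1-TFE3 tumours; the difference between those changes was not tested.

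The cartilage-type and minor fibrillar chains were called in different sets of tumours. Type XI collagen starts the fibrils of cartilage and is built with Col11a1 and Col11a2. Col11a1 was at 104, 165 and 56.9 CPM in YAP1-TFE3, 284, 316 and 550.1 CPM in YAP1-FAM118B, 174, 85.9 and 166 CPM in YAP1-MAMLD1-dR3R1 and 4.06, 7.71 and 4.40 CPM in naive libraries. All tumour libraries lay above the naive ones, with rises of 4.33 ± 0.50, 6.15 ± 0.55 and 4.72 ± 0.51 in the order YAP1-TFE3, YAP1-FAM118B, YAP1-MAMLD1-dR3R1 (edgeR adjusted p = 4.47e-05, 4.98e-05 and 4.80e-05). The YAP1-TFE3 value was 3.67 without YAP1-TFE3 replicate 2. Its partner Col11a2 had every YAP1-FAM118B library below all others, while YAP1-TFE3 and YAP1-MAMLD1-dR3R1 libraries lay on both sides of the naive range. Col11a2 had 6.59 to 92.7 CPM over the tumours and 19.1 to 22.3 CPM in naive cortex, and its one call against naive, higher in YAP1-MAMLD1-dR3R1 tumours, was lost without either of 2 libraries of that group or any naive library (edgeR adjusted p 0.0937 to 0.241). It held in 2 of 16 alternatives, and was also lost with RLE factors, library size only, both other filters, robust dispersion, the replicate block, without the mixed-signal pair and with only the groups compared (edgeR adjusted p 0.0515 to 0.138). Col2a1 was at 0.964, 0.665 and 1.07 CPM in YAP1-TFE3, 2.18, 0.923 and 1.29 CPM in YAP1-FAM118B, 4.89, 4.93 and 11.4 CPM in YAP1-MAMLD1-dR3R1 and 0.246, 0.0838 and 0.396 CPM in naive libraries. Col2a1, the main fibrillar collagen of cartilage, was low in every library but rose in YAP1-TFE3 by 1.87 ± 0.59, in YAP1-FAM118B by 2.58 ± 0.59 and in YAP1-MAMLD1-dR3R1 tumours by 4.85 ± 0.63 (edgeR adjusted p = 0.0164, 0.00951 and 1.31e-04). The YAP1-TFE3 call of Col2a1 was lost when naive replicate 1 or 2 or YAP1-TFE3 replicate 1 or 3 was left out (edgeR adjusted p 0.0512 to 0.0645).

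Col24a1 and Col27a1 encode minor fibrillar chains known from developing bone and cartilage. Col27a1 was at 3.71, 7.49 and 14.4 CPM in YAP1-TFE3, 39.5, 9.32 and 64 CPM in YAP1-FAM118B, 23.4, 43.3 and 99.6 CPM in YAP1-MAMLD1-dR3R1 and 4.80, 6.53 and 9.15 CPM in naive libraries. Col27a1 was higher in YAP1-FAM118B by 2.46 ± 0.76 and in YAP1-MAMLD1-dR3R1 tumours by 3.02 ± 0.78 (edgeR adjusted p = 0.0355 and 0.00698), and YAP1-TFE3 overlapped naive cortex. The YAP1-MAMLD1-dR3R1 value was 2.28 without YAP1-MAMLD1-dR3R1 replicate 3, and the YAP1-FAM118B value 1.84 without YAP1-FAM118B replicate 3. The YAP1-FAM118B call of Col27a1 was lost without any one of the naive libraries or without replicate 1 or 3 of YAP1-FAM118B (edgeR adjusted p 0.0682 to 0.140). Col24a1 was at 0.0482, 0.0887 and 0 CPM in YAP1-TFE3, 4.64, 2.64 and 2.26 CPM in YAP1-FAM118B, 0.505, 0.290 and 0.0887 CPM in YAP1-MAMLD1-dR3R1 and 0.575, 0.419 and 0.528 CPM in naive libraries. Every YAP1-FAM118B library of Col24a1 lay above, and every YAP1-TFE3 library below, all naive libraries. With 3 counts in all YAP1-TFE3 libraries against 36 in naive cortex, the ratio was 0.0912 (95% counting interval 0.0180 to 0.289); such intervals cover counting error only. The rise in YAP1-FAM118B tumours was 2.64 ± 0.66 (edgeR adjusted p = 0.0141), and this call was lost without YAP1-FAM118B replicate 1 (0.0669), any one naive library (0.0504 to 0.0602) or the mixed-signal pair (0.0715).

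**Figure D3:**
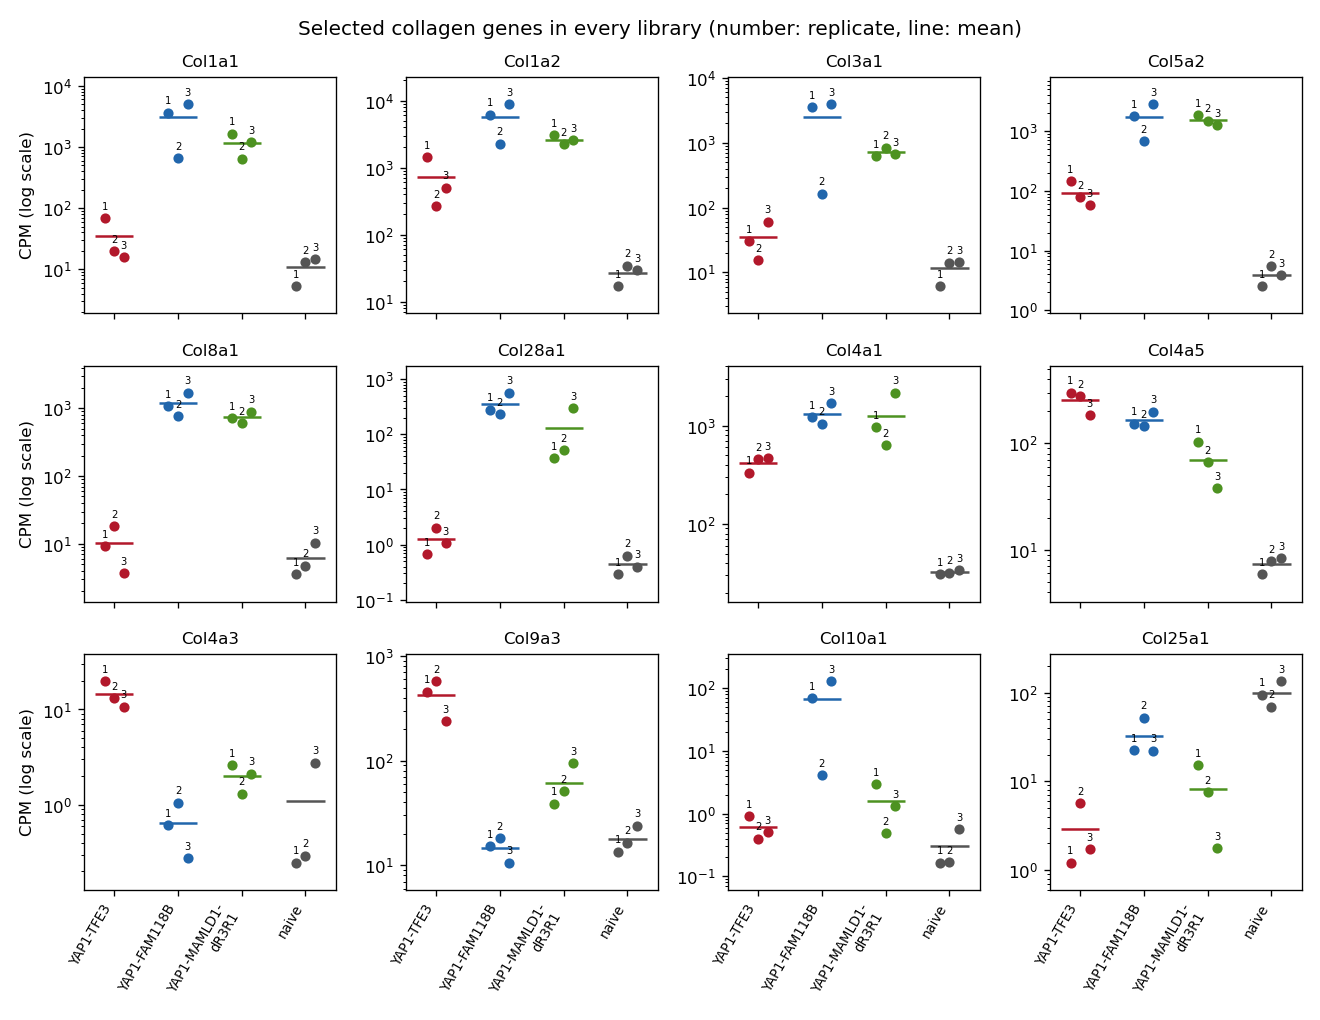
CPM on log axes (y) of 12 collagen genes in every library (points, numbered by replicate; lines are group means) for YAP1-TFE3, YAP1-FAM118B, YAP1-MAMLD1-dR3R1 and naive (x). Col8a1, Col28a1 and Col3a1 show YAP1-TFE3 far below the other tumours, Col9a3 and Col4a3 show it above them, and Col10a1 is high in YAP1-FAM118B replicates 1 and 3.

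The balance between chains of one collagen differed between groups. The Col1a1 to Col1a2 ratio, taken from CPM per kb of the longest annotated transcript, was 0.0432, 0.0676 and 0.0283 in YAP1-TFE3 libraries, 0.533, 0.262 and 0.512 in YAP1-FAM118B tumours, 0.491, 0.262 and 0.420 in YAP1-MAMLD1-dR3R1 and 0.280, 0.338 and 0.448 in naive libraries. All YAP1-TFE3 ratios lay below those of the other 9 libraries. Col4a1 to Col4a2, whose chains join in one triple helix, had ratios of 1.63, 1.5 and 1.68 in YAP1-TFE3, 1.64, 1.71 and 1.63 in YAP1-FAM118B and 1.98, 2.07 and 1.96 in YAP1-MAMLD1-dR3R1 tumours, against 0.941, 0.817 and 0.867 in naive cortex. Tumour and naive ratios did not overlap, and those of YAP1-MAMLD1-dR3R1 also stood above all others. For Col6a1 to Col6a2 the groups overlapped, with ratios from 1.28 to 3.68 over all libraries. Col8a1 to Col8a2 was 1.09, 1.88 and 2.91 in YAP1-TFE3, 65.4, 343 and 149 in YAP1-FAM118B tumours, 27.3, 213 and 1317 in YAP1-MAMLD1-dR3R1 and 1.18, 0.904 and 0.668 in naive libraries. No test was made of these ratios.

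**Figure D4:**
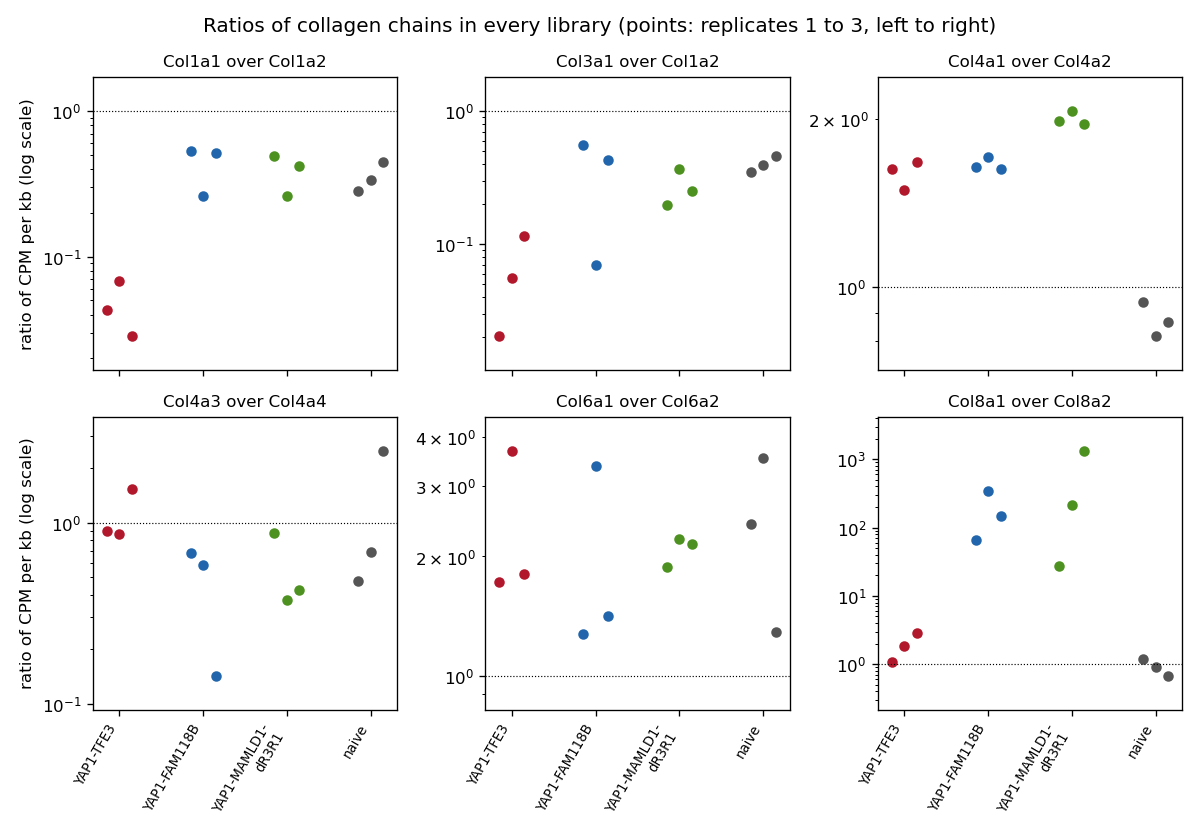
Ratios of collagen chains as CPM per kb on log axes (y) in every library (points, replicates 1 to 3 from left to right) of YAP1-TFE3, YAP1-FAM118B, YAP1-MAMLD1-dR3R1 and naive (x). The Col1a1 to Col1a2 ratio is below 0.07 in YAP1-TFE3 libraries and above 0.26 in all others, and the Col4a1 to Col4a2 ratio is above 1 in every tumour library and below 1 in every naive library.

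In YAP1-TFE3 tumours 6 of 6 basement membrane genes, the type IV collagens, were higher than in naive cortex (beside 40.6% of all genes). The count was 4 in YAP1-FAM118B tumours (21.3%) and 5 in YAP1-MAMLD1-dR3R1 tumours (34.4%). The class summed to 912, 1082 and 952 CPM in YAP1-TFE3, 2146, 1832 and 2944 CPM in YAP1-FAM118B, 1579, 1048 and 3316 CPM in YAP1-MAMLD1-dR3R1 and 70.0, 81.8 and 87.4 CPM in naive libraries. Col4a1 and Col4a2 form the network found in nearly all basement membranes, vessels included. Col4a1 was at 332, 456 and 468 CPM in YAP1-TFE3, 1226, 1047 and 1698 CPM in YAP1-FAM118B, 959, 632 and 2158 CPM in YAP1-MAMLD1-dR3R1 and 30.7, 32 and 34 CPM in naive libraries. Col4a2 was at 199, 297 and 271 CPM in YAP1-TFE3, 729, 596 and 1017 CPM in YAP1-FAM118B, 471, 298 and 1071 CPM in YAP1-MAMLD1-dR3R1 and 31.8, 38.2 and 38.2 CPM in naive libraries. Every tumour library was above every naive library for both genes, and YAP1-TFE3 was the lowest tumour group for Col4a1. Col4a1 was higher by 3.70 ± 0.43 in YAP1-TFE3, 5.36 ± 0.46 in YAP1-FAM118B tumours and 5.28 ± 0.46 in YAP1-MAMLD1-dR3R1 tumours (edgeR adjusted p = 4.45e-05, 4.19e-05 and 1.68e-05). The changes of Col4a2 were 2.83 ± 0.43, 4.44 ± 0.46 and 4.09 ± 0.46 in the same order (edgeR adjusted p = 2.48e-04, 1.13e-04 and 5.53e-05). The pair lies head to head on chromosome 8 (RefSeq bounds on GRCm38 are, for Col4a1, 11198423 to 11312889 and, for Col4a2, 11312805 to 11449287), and 22 exon bases overlap in the GENCODE annotation, so a few reads could be counted for either. The YAP1-MAMLD1-dR3R1 change was 4.62 without YAP1-MAMLD1-dR3R1 replicate 3 for Col4a1, and 3.41 without YAP1-MAMLD1-dR3R1 replicate 3 for Col4a2. Endothelial markers summed to 194 to 339 CPM in YAP1-TFE3, 137 to 234 CPM in YAP1-FAM118B, 288 to 522 CPM in YAP1-MAMLD1-dR3R1 and 126 to 140.3 CPM in naive libraries, none at 0. In that order 6, 1 and 9 of 10 were higher than naive, beside 40.6%, 21.3% and 34.4% of all genes. Mural cell markers summed to 469 to 728, 312 to 729 and 428 to 721 CPM in the same tumour groups, against 142 to 178 CPM in naive libraries. Of the 10 mural markers 4, 5 and 5 were higher, beside the same shares. The part of either list in these results was not tested.

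The remaining type IV chains had another order. Col4a5 and Col4a6 lie head to head on chromosome X and encode chains of specialised basement membranes, such as those of kidney and smooth muscle. Col4a5 was at 298, 278 and 185 CPM in YAP1-TFE3, 153, 145 and 199 CPM in YAP1-FAM118B, 104, 66.5 and 37.9 CPM in YAP1-MAMLD1-dR3R1 and 5.87, 7.87 and 8.36 CPM in naive libraries. Col4a6 was at 36.6, 19.8 and 9.66 CPM in YAP1-TFE3, 35.8, 41.3 and 27 CPM in YAP1-FAM118B, 39, 46.2 and 41 CPM in YAP1-MAMLD1-dR3R1 and 0.821, 2.89 and 2.73 CPM in naive libraries. Tumour and naive libraries did not overlap for either gene. YAP1-TFE3 and YAP1-FAM118B overlapped for Col4a5, above YAP1-MAMLD1-dR3R1. Col4a5 changed in YAP1-TFE3 by 5.11 ± 0.39 against naive, by 4.49 ± 0.38 in YAP1-FAM118B tumours and 3.23 ± 0.36 in YAP1-MAMLD1-dR3R1 tumours (edgeR adjusted p = 4.01e-06, 3.95e-05 and 5.47e-05). Col4a6 rose by 3.36 ± 0.54, 4.01 ± 0.55 and 4.29 ± 0.56 in that order (edgeR adjusted p = 3.45e-04, 5.15e-04 and 1.31e-04). Col4a3 (chromosome 1, 82586921 to 82722059) and Col4a4 (chromosome 1, 82448419 to 82587034, GRCm38) are a second head-to-head pair, on chromosome 1, whose chains join that of Col4a5 in the kidney filter. Col4a3 was at 19.8, 13.2 and 10.7 CPM in YAP1-TFE3, 0.616, 1.05 and 0.277 CPM in YAP1-FAM118B, 2.60, 1.30 and 2.13 CPM in YAP1-MAMLD1-dR3R1 and 0.246, 0.293 and 2.77 CPM in naive libraries. Col4a4 was at 26.1, 18 and 8.26 CPM in YAP1-TFE3, 1.07, 2.14 and 2.31 CPM in YAP1-FAM118B, 3.53, 4.11 and 5.90 CPM in YAP1-MAMLD1-dR3R1 and 0.616, 0.503 and 1.32 CPM in naive libraries. In YAP1-TFE3 every library exceeded all other libraries of both genes. Col4a3 rose there by 3.72 ± 0.88 against naive (edgeR adjusted p = 0.00361), and by 5.73 without naive replicate 3, the naive library that also held the most choroid plexus RNA (1729 CPM). Choroid plexus markers also varied among tumours, at 1025, 323 and 5.48 CPM in YAP1-TFE3, 89.6, 119 and 133 CPM in YAP1-FAM118B and 2346, 68.6 and 41.5 CPM in YAP1-MAMLD1-dR3R1. Their part in the values of Col4a3 and Col4a4 was not tested. Col4a4 rose by 4.42 ± 0.56 in YAP1-TFE3 and by 2.47 ± 0.53 in YAP1-MAMLD1-dR3R1 tumours (edgeR adjusted p = 7.81e-05 and 0.00247), and neither gene passed in YAP1-FAM118B. The YAP1-TFE3 change of Col4a6 was 2.63 without YAP1-TFE3 replicate 1.

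Among the network collagens Col8a1 set YAP1-TFE3 apart from the other tumours. Col8a1 and Col8a2 encode type VIII collagen of vessel walls and the cornea, and Col10a1 the collagen of hypertrophic cartilage. Of the 3 genes, 0 were called in YAP1-TFE3 tumours by edgeR against naive in either direction, beside 40.6% of all genes higher and 30% lower. Higher than naive were 2 in YAP1-FAM118B tumours (beside 21.3% of all genes) and 1 in YAP1-MAMLD1-dR3R1 (34.4%). At an unadjusted p under 0.05 the YAP1-TFE3 count was 0 higher and 0 lower, and DESeq2 gave 0 and 0. Col8a1 was at 9.31, 18.3 and 3.67 CPM in YAP1-TFE3, 1083, 764 and 1697 CPM in YAP1-FAM118B, 715, 606 and 895 CPM in YAP1-MAMLD1-dR3R1 and 3.53, 4.77 and 10.4 CPM in naive libraries. Col8a2 was at 7.23, 8.25 and 1.07 CPM in YAP1-TFE3, 14, 1.89 and 9.64 CPM in YAP1-FAM118B, 22.2, 2.42 and 0.576 CPM in YAP1-MAMLD1-dR3R1 and 2.54, 4.48 and 13.2 CPM in naive libraries. All YAP1-FAM118B and YAP1-MAMLD1-dR3R1 libraries of Col8a1 lay far above all others, while for Col8a2 the groups overlapped. Col8a1 changed by 7.56 ± 0.74 in YAP1-FAM118B tumours and 6.89 ± 0.72 in YAP1-MAMLD1-dR3R1 tumours (edgeR adjusted p = 7.71e-05 and 3.72e-05), and by 0.74 ± 0.57 in YAP1-TFE3 (edgeR adjusted p = 0.262), a difference that turned negative without YAP1-TFE3 replicate 2. Col10a1 was at 0.916, 0.399 and 0.511 CPM in YAP1-TFE3, 69.8, 4.11 and 130.0 CPM in YAP1-FAM118B, 2.95, 0.483 and 1.33 CPM in YAP1-MAMLD1-dR3R1 and 0.164, 0.168 and 0.572 CPM in naive libraries. YAP1-FAM118B replicates 1 and 3 stood far above all other libraries and replicate 2 came next, so that the group did not overlap the others. Its change was 7.81 ± 1.31 against naive (edgeR adjusted p = 0.00164). It was 8.63 without naive replicate 3 and 6.93 without YAP1-FAM118B replicate 3. Col8a1 was 8.15 without naive replicate 3 in YAP1-FAM118B tumours, and 7.47 without naive replicate 3 in YAP1-MAMLD1-dR3R1 tumours.

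Col10a1 was accompanied in YAP1-FAM118B replicates 1 and 3 by enzymes that break collagen down, named here after their values were seen. Ctsk, a collagen-cleaving cathepsin of osteoclasts, was at 10.9, 1.68 and 2.0 CPM in YAP1-TFE3, 2137, 22.2 and 3697 CPM in YAP1-FAM118B, 26.1, 4.59 and 6.61 CPM in YAP1-MAMLD1-dR3R1 and 4.56, 5.28 and 3.34 CPM in naive libraries. Mmp13, a collagenase of hypertrophic cartilage and bone, had 6.17, 0.887 and 3.85 CPM in YAP1-TFE3, 853, 7.64 and 1208 CPM in YAP1-FAM118B, 1.28, 0.0966 and 0.709 CPM in YAP1-MAMLD1-dR3R1 and 0.0821, 0 and 0 CPM in naive libraries. Replicate 2 was nearer to the other groups for both. Among 14 bone and cartilage markers, Ibsp was at 36.9, 0.378 and 62.1 CPM in YAP1-FAM118B libraries and at most 0.220 CPM in naive ones, but Bglap was at 0, 0 and 0.0922 CPM in YAP1-FAM118B. The whole list summed to 56.4 to 122 CPM in YAP1-TFE3, 53.1 to 133 CPM in YAP1-FAM118B, 110.2 to 246 CPM in YAP1-MAMLD1-dR3R1 and 48.6 to 57.5 CPM in naive libraries, and its part in the Col10a1 result was not tested.

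Of the 6 beaded filament genes, 3 were higher than in naive cortex in YAP1-FAM118B tumours (beside 21.3% of all genes) and 3 in YAP1-MAMLD1-dR3R1 tumours (34.4%). In YAP1-TFE3 0 were higher and 2 lower, beside 40.6% and 30% of all genes. The 33.3% called lower there lay near the background. For the count of 0, edgeR gave 0 at an unadjusted p under 0.05 and DESeq2 gave 0. Col6a1, Col6a2 and Col6a3 encode the standard chains of type VI collagen, the microfibrils of loose connective tissue. Col6a1 was at 10.8, 13.5 and 35.2 CPM in YAP1-TFE3, 387, 58.7 and 422 CPM in YAP1-FAM118B, 271, 241 and 312 CPM in YAP1-MAMLD1-dR3R1 and 19.3, 34.3 and 11.3 CPM in naive libraries. Col6a2 was at 7.09, 4.17 and 22.1 CPM in YAP1-TFE3, 343, 19.8 and 338 CPM in YAP1-FAM118B, 163, 123 and 165 CPM in YAP1-MAMLD1-dR3R1 and 9.11, 11 and 9.90 CPM in naive libraries. Col6a3 was at 9.35, 9.40 and 46.6 CPM in YAP1-TFE3, 474, 17.1 and 638 CPM in YAP1-FAM118B, 32.8, 63.5 and 102 CPM in YAP1-MAMLD1-dR3R1 and 4.93, 5.95 and 7.12 CPM in naive libraries. YAP1-TFE3 libraries were mixed with the naive ones for Col6a1 and Col6a2 and lay above them for Col6a3, and YAP1-FAM118B replicate 2 was far below replicates 1 and 3 for all of them. Col6a1 was raised by 3.74 ± 0.76 in YAP1-FAM118B tumours and 3.67 ± 0.76 in YAP1-MAMLD1-dR3R1 tumours (edgeR adjusted p = 0.00482 and 0.00202), against -0.13 ± 0.68 in YAP1-TFE3 (edgeR adjusted p = 0.878). Col6a2 was raised by 4.55 ± 0.96 and 3.91 ± 0.93 (edgeR adjusted p = 0.00601 and 0.00459), against 0.16 ± 0.84 in YAP1-TFE3 (edgeR adjusted p = 0.876). Col6a3 rose by 5.97 ± 1.24 in YAP1-FAM118B tumours and 3.46 ± 1.11 in YAP1-MAMLD1-dR3R1 tumours (edgeR adjusted p = 0.00545 and 0.0196), a call the second group lost without its replicate 3 (0.0535) or any one naive library (0.0503 to 0.0664). The YAP1-TFE3 value of 1.86 ± 1.04 did not pass (edgeR adjusted p = 0.134). Leaving out 1 library gave Col6a3 values of 5.36 without YAP1-FAM118B replicate 3 in YAP1-FAM118B tumours.

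The alternative chains of type VI, Col6a4, Col6a5 and Col6a6, lie together on chromosome 9 and were low in most libraries. A count of 3 corresponds to 0.116 to 0.145 CPM in 1 library. Col6a4 was at 0.0482, 0.0443 and 0.325 CPM in YAP1-TFE3, 1.60, 0.756 and 0.553 CPM in YAP1-FAM118B, 10.1, 2.32 and 0.842 CPM in YAP1-MAMLD1-dR3R1 and 1.23, 1.59 and 0.308 CPM in naive libraries. Col6a6 was at 0, 0.0443 and 0 CPM in YAP1-TFE3, 2.67, 0.168 and 0 CPM in YAP1-FAM118B, 0.427, 1.74 and 0.975 CPM in YAP1-MAMLD1-dR3R1 and 0.205, 0.419 and 1.06 CPM in naive libraries. Col6a5 was at 0.241, 0.355 and 0.928 CPM in YAP1-TFE3, 25.2, 0.252 and 0.231 CPM in YAP1-FAM118B, 1.86, 3.53 and 4.30 CPM in YAP1-MAMLD1-dR3R1 and 0.369, 1.30 and 1.19 CPM in naive libraries. YAP1-FAM118B replicate 1 alone held 25.2 CPM of Col6a5, which was called in no comparison with naive. Col6a4 was lower in YAP1-TFE3 tumours, with a change of -2.86 ± 1.12 (edgeR adjusted p = 0.0410), and this call was lost without naive replicate 1 or 2 or YAP1-TFE3 replicate 1 or 2 (0.0653 to 0.108); without YAP1-TFE3 replicate 3 the value was -4.48. With 1 count of Col6a6 in YAP1-TFE3 against 39 in naive cortex, the ratio was 0.0281 (95% counting interval 6.93e-04 to 0.166). That call (edgeR adjusted p = 0.0439) was lost without naive replicate 2 or 3 or any one YAP1-TFE3 library (0.0607 to 0.116).

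Of the 9 FACIT collagens, which decorate fibril surfaces, 3 were higher than in naive cortex in YAP1-TFE3 (beside 40.6% of all genes), 3 in YAP1-FAM118B tumours (21.3%) and 5 in YAP1-MAMLD1-dR3R1 tumours (34.4%), and 1 was lower in the last (28.8%). Col12a1 and Col14a1 are chains of dense connective tissue such as tendon, and Col16a1 is found at fibrils and cell contacts. Col12a1 was at 563, 363 and 47.9 CPM in YAP1-TFE3, 1109, 405 and 1893 CPM in YAP1-FAM118B, 590.4, 144 and 266 CPM in YAP1-MAMLD1-dR3R1 and 11.7, 12.2 and 8.88 CPM in naive libraries. Col14a1 was at 4.10, 5.01 and 3.48 CPM in YAP1-TFE3, 451, 261 and 734 CPM in YAP1-FAM118B, 106, 33 and 517 CPM in YAP1-MAMLD1-dR3R1 and 1.44, 1.84 and 0.924 CPM in naive libraries. Col16a1 was at 42.3, 42.6 and 18.1 CPM in YAP1-TFE3, 398, 277 and 542 CPM in YAP1-FAM118B, 284, 446 and 593 CPM in YAP1-MAMLD1-dR3R1 and 6.32, 11.5 and 10.2 CPM in naive libraries. For Col12a1 every tumour library lay above every naive one and the tumour groups overlapped. For Col14a1 and Col16a1 YAP1-TFE3 sat between naive cortex and the other tumours without overlap. Col12a1 rose by 4.89 ± 0.95 in YAP1-TFE3, 6.70 ± 1.03 in YAP1-FAM118B tumours and 4.93 ± 0.95 in YAP1-MAMLD1-dR3R1 tumours (edgeR adjusted p = 0.00110, 0.00101 and 0.00138). Col16a1 rose by 1.88 ± 0.41, 5.44 ± 0.48 and 5.56 ± 0.48 in that order (edgeR adjusted p = 0.00239, 4.79e-05 and 1.65e-05). Col14a1 rose by 8.42 ± 1.08 in YAP1-FAM118B tumours and 7.28 ± 1.03 in YAP1-MAMLD1-dR3R1 tumours (edgeR adjusted p = 3.38e-04 and 2.11e-04), while 1.58 ± 0.85 in YAP1-TFE3 did not pass (edgeR adjusted p = 0.120; 0.0175 with only the groups compared in the fit). The YAP1-MAMLD1-dR3R1 value of Col14a1 was 5.63 without YAP1-MAMLD1-dR3R1 replicate 3. Col12a1 was 4.13 without YAP1-TFE3 replicate 1, and 4.23 without YAP1-MAMLD1-dR3R1 replicate 1.

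Type IX collagen coats cartilage fibrils with the products of Col9a1, Col9a2 and Col9a3, of which Col9a3 alone was called against naive. Col9a3 was at 458, 576 and 237 CPM in YAP1-TFE3, 15.3, 18.3 and 10.6 CPM in YAP1-FAM118B, 38.7, 51.2 and 94.8 CPM in YAP1-MAMLD1-dR3R1 and 13.5, 16.5 and 23.9 CPM in naive libraries. YAP1-TFE3 libraries lay above all others, and YAP1-FAM118B overlapped naive cortex. Col9a3 rose by 4.56 ± 0.47 in YAP1-TFE3 and by 1.78 ± 0.42 in YAP1-MAMLD1-dR3R1 tumours (edgeR adjusted p = 2.08e-05 and 0.00422), against -0.29 ± 0.41 in YAP1-FAM118B (edgeR adjusted p = 0.611). Col9a1 stayed at 0.194 to 4.19 CPM and Col9a2 at 2.09 to 22.5 CPM over all 12 libraries, and neither was called against naive. Col9a3 (chromosome 2, 180598102 to 180622192, GRCm38) shares 234 exon bases, 6.07% of its exons, with Tcfl5 on the other strand, and the strand setting of the counting is not given in the sources used here. The other FACIT chains behaved singly. Col19a1 was at 19.5, 10.8 and 26.1 CPM in YAP1-TFE3, 10.5, 13.6 and 9.73 CPM in YAP1-FAM118B, 3.88, 2.51 and 1.20 CPM in YAP1-MAMLD1-dR3R1 and 20.8, 16.2 and 6.60 CPM in naive libraries. Col19a1, known from muscle and some neurons, was lower in YAP1-MAMLD1-dR3R1 tumours, with a change of -2.52 ± 0.53 (edgeR adjusted p = 0.00227), where all libraries lay below the naive ones. Col20a1 was at 6.56, 7.54 and 7.20 CPM in YAP1-TFE3, 7.27, 3.86 and 6.09 CPM in YAP1-FAM118B, 6.99, 18.6 and 27.8 CPM in YAP1-MAMLD1-dR3R1 and 4.60, 3.89 and 3.34 CPM in naive libraries. Col20a1 was higher in YAP1-MAMLD1-dR3R1 tumours by 2.17 ± 0.44 (edgeR adjusted p = 0.00179), and all of its libraries lay above the naive ones, as did those of YAP1-TFE3. Col22a1, of the muscle and tendon junction, ranged from 0.279 to 7.78 CPM and was called nowhere.

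Col7a1, the chain of the anchoring fibrils that tie epidermis to dermis, was higher in each tumour group. Col7a1 was at 14.8, 7.54 and 6.59 CPM in YAP1-TFE3, 16.3, 11.2 and 23.9 CPM in YAP1-FAM118B, 27.7, 5.03 and 2.26 CPM in YAP1-MAMLD1-dR3R1 and 0.657, 1.05 and 0.748 CPM in naive libraries. No tumour library overlapped the naive ones, and replicate 1 of YAP1-MAMLD1-dR3R1 stood above its partners. The changes were 3.55 ± 0.85 in YAP1-TFE3, 4.38 ± 0.88 in YAP1-FAM118B tumours and 3.83 ± 0.86 in YAP1-MAMLD1-dR3R1 tumours (edgeR adjusted p = 0.00388, 0.00458 and 0.00333), the last becoming 2.15 without that replicate. The YAP1-TFE3 value was 2.94 without YAP1-TFE3 replicate 1. The 8 epidermis markers summed to 5.15 to 9.31 CPM in YAP1-TFE3, 12.6 to 21.4 CPM in YAP1-FAM118B and 6.83 to 17.9 CPM in YAP1-MAMLD1-dR3R1 tumours, against 24.8 to 26.2 CPM in naive cortex, with Krt5 at 0 in YAP1-TFE3 and Dsg3 at 0 in YAP1-TFE3, YAP1-MAMLD1-dR3R1 and naive libraries, and their part was not tested. The multiplexins Col18a1 and Col15a1, from which endostatin and a related fragment are cut, were also raised in every fusion. Col18a1 was at 217, 230.3 and 42.8 CPM in YAP1-TFE3, 383, 281 and 714 CPM in YAP1-FAM118B, 178, 184 and 234 CPM in YAP1-MAMLD1-dR3R1 and 4.72, 6.37 and 12.1 CPM in naive libraries. Col15a1 was at 14.7, 8.11 and 55.9 CPM in YAP1-TFE3, 162, 38.8 and 227 CPM in YAP1-FAM118B, 54.3, 117 and 553 CPM in YAP1-MAMLD1-dR3R1 and 4.23, 3.89 and 5.45 CPM in naive libraries. Every tumour library of both genes lay above every naive library. Col18a1 rose by 4.40 ± 0.67, 5.89 ± 0.72 and 4.68 ± 0.68 in the order YAP1-TFE3, YAP1-FAM118B, YAP1-MAMLD1-dR3R1 (edgeR adjusted p = 2.42e-04, 2.55e-04 and 2.45e-04). Col15a1 rose by 4.97 ± 1.10 in YAP1-FAM118B tumours and 5.74 ± 1.14 in YAP1-MAMLD1-dR3R1 tumours (edgeR adjusted p = 0.00784 and 0.00168). Its YAP1-TFE3 rise of 2.54 ± 1.00 (edgeR adjusted p = 0.0422) was lost when any library of either group except YAP1-TFE3 replicate 2 was left out, and was 1.16 without YAP1-TFE3 replicate 3 (0.292). The call was also lost with RLE factors, library size only and both other filters on low counts (edgeR adjusted p 0.0535, 0.0545, 0.0600 and 0.0571), and without the mixed-signal pair (0.0952). The YAP1-MAMLD1-dR3R1 value was 4.24 without YAP1-MAMLD1-dR3R1 replicate 3.

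Of the 4 transmembrane collagens, 2 were lower in YAP1-TFE3 (beside 30% of all genes). In YAP1-FAM118B 0 were called by edgeR, beside 21.3% of all genes higher and 8.45% lower. In YAP1-MAMLD1-dR3R1 tumours 1 was higher and 1 lower (beside 34.4% and 28.8%). For YAP1-FAM118B edgeR gave 0 higher and 0 lower at an unadjusted p under 0.05, and DESeq2 gave 0 and 0. Col25a1 is made by neurons, and its product binds amyloid plaques. Col25a1 was at 1.21, 5.72 and 1.72 CPM in YAP1-TFE3, 22.5, 52 and 22.1 CPM in YAP1-FAM118B, 15.2, 7.59 and 1.77 CPM in YAP1-MAMLD1-dR3R1 and 94.5, 69.6 and 134 CPM in naive libraries. All tumour libraries lay below all naive libraries. Col25a1 fell by 5.10 ± 0.87 on the log2 scale in YAP1-TFE3 and by 3.60 ± 0.80 in YAP1-MAMLD1-dR3R1 tumours (edgeR adjusted p = 4.92e-04 and 0.00320), and the YAP1-FAM118B value of -1.63 ± 0.74 did not pass (edgeR adjusted p = 0.123; 0.0167 with only the groups compared in the fit). Neuronal markers moved in the same libraries, with 9 of 10 lower in YAP1-TFE3 (beside 30% of all genes) and 7 in YAP1-MAMLD1-dR3R1 (28.8%). Their part in the Col25a1 result was not tested. The Col25a1 change was -6.32 without YAP1-TFE3 replicate 2 in YAP1-TFE3, and -4.41 without YAP1-MAMLD1-dR3R1 replicate 1 in YAP1-MAMLD1-dR3R1 tumours. Col23a1 was at 4.24, 1.82 and 2.37 CPM in YAP1-TFE3, 14.7, 10.7 and 10.8 CPM in YAP1-FAM118B, 11.8, 14.1 and 15.5 CPM in YAP1-MAMLD1-dR3R1 and 16.7, 17.2 and 11.1 CPM in naive libraries. Col23a1, a cell surface collagen shed by furin, was lower in YAP1-TFE3, with a change of -2.41 ± 0.33 (edgeR adjusted p = 1.12e-04), with no overlap of its libraries with any other group. It was -3.01 without YAP1-TFE3 replicate 1. Col13a1 was at 1.83, 0.887 and 0.882 CPM in YAP1-TFE3, 2.42, 1.30 and 3.09 CPM in YAP1-FAM118B, 10.9, 3.58 and 3.10 CPM in YAP1-MAMLD1-dR3R1 and 0.985, 2.30 and 1.19 CPM in naive libraries. Col13a1, a chain of the neuromuscular junction, was higher in YAP1-MAMLD1-dR3R1 by 1.97 ± 0.60 (edgeR adjusted p = 0.0159); replicate 1 stood above its partners, and the call was lost without it (1.16, adjusted p 0.0827) or without naive replicate 1 or 3 (0.0660 and 0.0546). Col17a1, the epidermal hemidesmosome collagen, had 0 to 1.88 CPM and was called nowhere.

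The pair left unclassed changed in different tumours. Col28a1 encodes a collagen found around Schwann cells of peripheral nerve. Col28a1 was at 0.675, 2.04 and 1.07 CPM in YAP1-TFE3, 279, 232 and 566 CPM in YAP1-FAM118B, 36.4, 51.2 and 297 CPM in YAP1-MAMLD1-dR3R1 and 0.287, 0.628 and 0.396 CPM in naive libraries. YAP1-FAM118B and YAP1-MAMLD1-dR3R1 libraries lay far above the others, and YAP1-TFE3 libraries, though above naive ones, had at most 2.04 CPM. Col28a1 rose by 9.66 ± 1.08 in YAP1-FAM118B tumours and 8.18 ± 1.03 in YAP1-MAMLD1-dR3R1 tumours (edgeR adjusted p = 1.57e-04 and 1.07e-04), against 1.52 ± 0.92 in YAP1-TFE3 (edgeR adjusted p = 0.161). The YAP1-MAMLD1-dR3R1 value was 6.63 without YAP1-MAMLD1-dR3R1 replicate 3. Schwann cell markers summed to 281 to 339 CPM in YAP1-TFE3, 525 to 917 CPM in YAP1-FAM118B, 525 to 1099 CPM in YAP1-MAMLD1-dR3R1 and 111 to 121 CPM in naive libraries, with Foxd3 at 0 in naive cortex. Of the 8, 3 were higher and 3 lower than naive in YAP1-TFE3, beside 40.6% and 30% of all genes. In YAP1-FAM118B tumours 4 were higher (21.3%) and in YAP1-MAMLD1-dR3R1 6 (34.4%), and their part in the Col28a1 result was not tested. Col26a1 was at 0.434, 0.177 and 0.418 CPM in YAP1-TFE3, 3.86, 3.69 and 2.21 CPM in YAP1-FAM118B, 4.0, 7.20 and 2.62 CPM in YAP1-MAMLD1-dR3R1 and 4.06, 5.32 and 4.57 CPM in naive libraries. Col26a1 was lower in YAP1-TFE3, with a change of -3.75 ± 0.49 (edgeR adjusted p = 9.38e-05), where every library lay below all others.

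The fusions were then compared with each other. YAP1-TFE3 tumours had 3 collagen genes higher and 23 lower than YAP1-FAM118B tumours, beside 28% and 23.7% of all genes, and 5 higher and 24 lower than YAP1-MAMLD1-dR3R1 tumours, beside 22.6% and 16.9%. The medians over the 44 genes were -2.12 and -1.72 on the log2 scale, against 0.08 and -0.05 over all genes tested. Against both other tumours at once, 19 collagens were lower in YAP1-TFE3 (background 9.72%) and 3 higher (background 18.1%). The 19 comprised Col1a1, Col1a2, Col3a1, Col5a1, Col5a2, Col5a3, Col24a1, Col27a1, Col4a1, Col4a2, Col8a1, Col6a1, Col6a2, Col6a6, Col14a1, Col16a1, Col23a1, Col26a1 and Col28a1, and the 3 were Col4a3, Col4a4 and Col9a3. Among these, at least 1 of the calls of Col1a2, Col5a3, Col24a1, Col27a1, Col4a2, Col6a6, Col4a3 and Col4a4 was lost when 1 library was left out, as was that of Col4a1 against YAP1-MAMLD1-dR3R1 with only the groups compared in the fit (edgeR adjusted p = 0.0548). For Col28a1 the difference from YAP1-FAM118B was -8.14 ± 1.00 and that from YAP1-MAMLD1-dR3R1 -6.65 ± 0.94 (edgeR adjusted p = 1.75e-04 and 4.99e-04). For Col8a1 the differences were -6.82 ± 0.71 and -6.15 ± 0.69 (edgeR adjusted p = 7.02e-05 and 1.35e-04), and for Col1a1 -6.47 ± 0.96 and -5.07 ± 0.90 (edgeR adjusted p = 5.03e-04 and 0.00180). The gap of Col1a2 was smaller, at -2.96 ± 0.66 against YAP1-FAM118B and -1.83 ± 0.63 against YAP1-MAMLD1-dR3R1 (edgeR adjusted p = 0.00439 and 0.0428), and the second was lost without any one YAP1-MAMLD1-dR3R1 library or YAP1-TFE3 replicate 2 or 3 (0.0532 to 0.0906); without YAP1-TFE3 replicate 1 it was -2.93. With 1 library left out, the difference from YAP1-FAM118B was -8.99 without YAP1-TFE3 replicate 2 for Col28a1, -7.81 without YAP1-TFE3 replicate 2 for Col8a1, -7.68 without YAP1-TFE3 replicate 1 for Col1a1, and -4.17 without YAP1-TFE3 replicate 1 for Col1a2. That from YAP1-MAMLD1-dR3R1 was -5.27 without YAP1-MAMLD1-dR3R1 replicate 3 and -7.36 without YAP1-TFE3 replicate 2 for Col28a1, -7.02 without YAP1-TFE3 replicate 2 for Col8a1, and -6.16 without YAP1-TFE3 replicate 1 for Col1a1. Col9a3 was higher by 4.85 ± 0.47 and 2.78 ± 0.43 (edgeR adjusted p = 4.95e-05 and 8.42e-04). Fibroblast and meningeal markers summed to 151 to 215 CPM in YAP1-TFE3, 171 to 580.3 CPM in YAP1-FAM118B and 360.1 to 578 CPM in YAP1-MAMLD1-dR3R1 tumours, against 155 to 231 CPM in naive cortex, none at 0. Of the 12, 6 were lower and 1 higher in YAP1-TFE3 than in YAP1-FAM118B, beside 23.7% and 28% of all genes. Against YAP1-MAMLD1-dR3R1, 3 were lower and 1 higher, beside 16.9% and 22.6%. The 8 smooth muscle markers summed to 2350.4 to 4835 CPM in YAP1-TFE3, against 506 to 878 CPM in YAP1-FAM118B tumours and 73.1 to 935 CPM in YAP1-MAMLD1-dR3R1 tumours, a sum made up mostly of Acta2. Of these, 3 were higher and 2 lower in YAP1-TFE3 than in each other fusion, which is 37.5% and 25% of the list. Over all genes the shares were 28% and 23.7% against YAP1-FAM118B, and 22.6% and 16.9% against YAP1-MAMLD1-dR3R1. The medians of the list were -1.05 against YAP1-FAM118B and -0.57 against YAP1-MAMLD1-dR3R1, and Tagln was among the lower genes in both. The part of either list was not tested. The count of 5 higher than YAP1-MAMLD1-dR3R1 was 3 without YAP1-TFE3 replicate 1 or YAP1-MAMLD1-dR3R1 replicate 2.

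Between YAP1-FAM118B and YAP1-MAMLD1-dR3R1 tumours, 5 collagens were higher and 4 lower in YAP1-FAM118B. These are 11.4% and 9.09% of the 44, near the 12.7% and 13.5% of all genes. The 5 were Col10a1, Col11a1, Col24a1, Col19a1 and Col4a5, and the 4 were Col9a3, Col2a1, Col11a2 and Col20a1. Col10a1 differed by 5.40 ± 1.13 and Col24a1 by 3.40 ± 0.69 (edgeR adjusted p = 0.0117 and 0.0107). Col9a3 was lower in YAP1-FAM118B, with a change of -2.06 ± 0.42 (edgeR adjusted p = 0.0107). Col10a1 differed by 6.21 without YAP1-MAMLD1-dR3R1 replicate 1 and 4.53 without YAP1-FAM118B replicate 3, and Col24a1 by 4.04 without YAP1-MAMLD1-dR3R1 replicate 1. When 1 library was left out, each of these calls was lost at least once except those of Col10a1, Col24a1 and Col9a3. The count of 5 was 2 without YAP1-MAMLD1-dR3R1 replicate 2 and 3 without YAP1-FAM118B replicate 1 or 3. The count of 4 was 2 without YAP1-MAMLD1-dR3R1 replicate 2 or YAP1-FAM118B replicate 3, and 1 without YAP1-MAMLD1-dR3R1 replicate 3 or YAP1-FAM118B replicate 2. Against both other tumours, Col10a1, Col11a1 and Col24a1 were higher in YAP1-FAM118B (background 8.19%) and Col9a3 lower (6.73%), Col2a1 and Col20a1 were higher in YAP1-MAMLD1-dR3R1 (4.59%), and Col19a1 and Col4a5 were lower there (3.68%). These counts lay near or below what such shares of the 44 genes would give.

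Libraries of YAP1-FAM118B were far from alike in collagen. Replicate 2 belongs to the mixed-signal pair, with counts of both Xist and Y-linked genes. Replicate 2 was the lowest of the group for 28 of 44 genes, and the mean of replicates 1 and 3 was a median of 1.80 times its level. Neither value was taken over all genes, so no background stands beside them. Over all genes tested, replicate 2 correlated at 0.955 with replicate 1 and 0.933 with replicate 3, against 0.974 between replicates 1 and 3 (log2 CPM). The median gap differed between classes, at 12.6 times over the beaded filament genes, 6.27 over the network genes, 3.40 over the fibrillar genes and 1.00 over the basement membrane genes. No test was made of the classes. The network value is that of Col8a2, which lies between 1.82 for Col8a1 and 24.3 for Col10a1. Among the beaded filament genes replicate 2 was the lowest for Col6a1, Col6a2 and Col6a3 but not for Col6a4, Col6a5 and Col6a6. Replicates 1 and 3 averaged 556 CPM of Col6a3, against 17.1 CPM in replicate 2, which is 32.6 times as much. For Col3a1 the ratio was 22.6, for Col1a1 6.51 and for Col1a2 3.27, but only 1.82 for Col8a1, 1.82 for Col28a1 and 1.40 for Col4a1. The neuronal Col25a1 was higher in replicate 2, as was the sum of neuronal markers, at 7755 CPM against 6366 and 5353 CPM in replicates 1 and 3. Fibroblast and meningeal markers were also low there, at 171 CPM against 580.3 and 503 CPM in replicates 1 and 3, as were skeletal muscle markers, at 6.46 against 61.2 and 82.2 CPM. The muscle list includes Myod1, the muscle master regulator, at no more than 0.168 CPM in any YAP1-FAM118B library. Their part in the collagen values was not tested. Without replicate 2, YAP1-FAM118B had 26 collagens higher than naive, and the number raised in every fusion was 18 in place of 14.

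**Figure D5:**
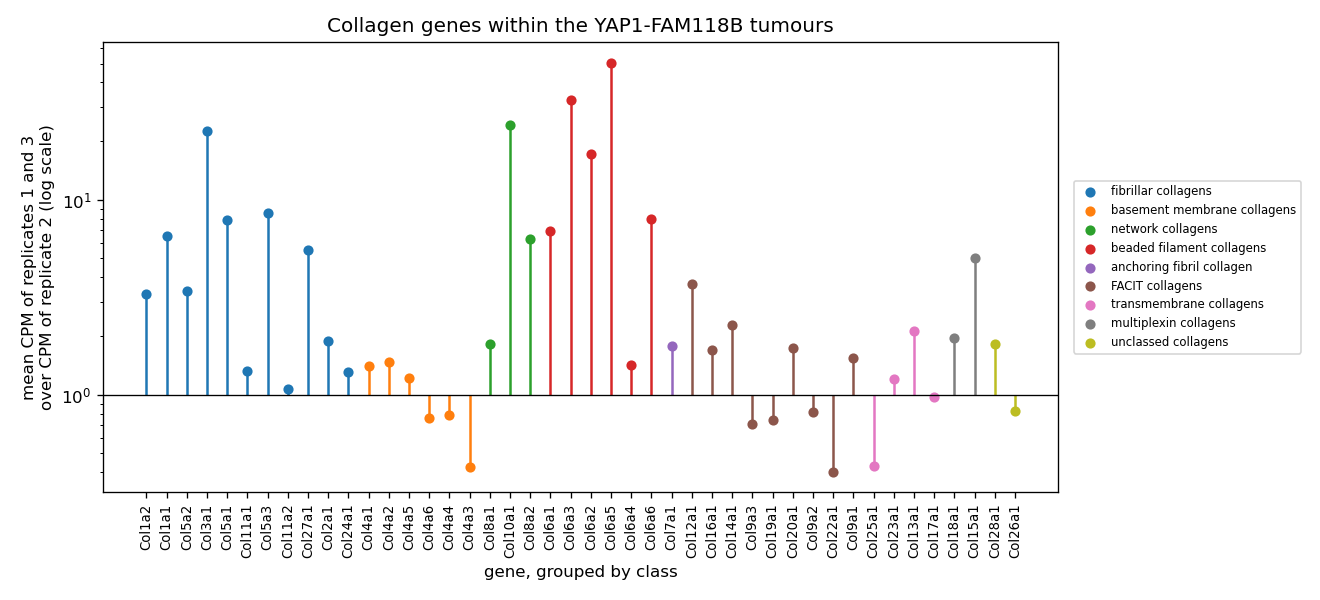
Mean CPM of YAP1-FAM118B replicates 1 and 3 divided by the CPM of replicate 2 (y, log axis; the line marks 1) for each collagen gene (x, grouped and coloured by class). Col6a1, Col6a2, Col6a3 and several fibrillar genes stand far above 1, with 32.6 for Col6a3; the highest point, 50.4 for Col6a5, comes from replicate 1 alone, whereas type IV genes lie between 0.425 and 1.47.

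Genes that modify and fold collagen chains were mostly raised in every tumour group. Of 21 such genes, 17 were higher in YAP1-TFE3 (beside 40.6% of all genes), 18 in YAP1-FAM118B tumours (21.3%) and 18 in YAP1-MAMLD1-dR3R1 tumours (34.4%), and 17 in every fusion (18.6%), with medians of 2.45, 2.41 and 2.45 on the log2 scale. Serpinh1 encodes the collagen chaperone HSP47. Serpinh1 was at 646, 553 and 625 CPM in YAP1-TFE3, 880.5, 426 and 1019 CPM in YAP1-FAM118B, 603, 575 and 907 CPM in YAP1-MAMLD1-dR3R1 and 14.4, 15.7 and 21.1 CPM in naive libraries. All tumour libraries exceeded all naive ones and the tumour groups overlapped, with rises of 5.16 ± 0.37, 5.51 ± 0.37 and 5.35 ± 0.37 (edgeR adjusted p = 2.66e-06, 1.61e-05 and 5.93e-06) in the order YAP1-TFE3, YAP1-FAM118B, YAP1-MAMLD1-dR3R1. Plod2, a lysyl hydroxylase of collagen ends, rose by 4.74 ± 0.36, 4.97 ± 0.37 and 3.40 ± 0.34 in that order (edgeR adjusted p = 4.03e-06, 2.18e-05 and 3.19e-05). P3h2, which hydroxylates prolines of type IV collagen in particular, was at 42.8, 48.1 and 32.3 CPM in YAP1-TFE3, 6.03, 5.96 and 7.33 CPM in YAP1-FAM118B, 22.7, 29.6 and 57 CPM in YAP1-MAMLD1-dR3R1 and 2.05, 2.43 and 2.33 CPM in naive libraries.

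Of 13 genes for procollagen processing and crosslinking, 9 were higher and 3 lower in YAP1-TFE3 (beside 40.6% and 30% of all genes), 10 higher in YAP1-FAM118B (21.3%), and 9 higher and 2 lower in YAP1-MAMLD1-dR3R1 tumours (34.4% and 28.8%). Of these, 8 were higher in every fusion, as were 7 of 14 fibril partners, 7 of 12 basement membrane partners, 5 of 9 receptors and 2 of 7 breakdown genes, beside 18.6% of all genes. Loxl2, a crosslinking lysyl oxidase, rose in each, by 8.53 ± 0.98, 7.47 ± 0.94 and 7.27 ± 0.93 (edgeR adjusted p = 4.02e-05, 2.98e-04 and 1.16e-04). Adamts2, which trims the front end of procollagens I to III, was at 4.15, 2.53 and 5.25 CPM in YAP1-TFE3, 152, 20.2 and 241 CPM in YAP1-FAM118B, 109.6, 51.9 and 143 CPM in YAP1-MAMLD1-dR3R1 and 17, 16.9 and 29.8 CPM in naive libraries. YAP1-FAM118B replicate 2 overlapped the naive range. Adamts2 was lower in YAP1-TFE3, with a change of -2.42 ± 0.75, and higher in YAP1-FAM118B and YAP1-MAMLD1-dR3R1 tumours by 2.70 ± 0.74 and 2.26 ± 0.73 (edgeR adjusted p = 0.0148, 0.0212 and 0.0207). Among 14 fibril partners 8 were higher and 2 lower in YAP1-TFE3, 9 were higher in YAP1-FAM118B tumours and 9 in YAP1-MAMLD1-dR3R1 tumours. The 8 are 57.1% of the list, beside 40.6% of all genes. Ogn, a small proteoglycan of fibrils, was at 349, 494 and 364 CPM in YAP1-TFE3, 32.1, 20.9 and 37.8 CPM in YAP1-FAM118B, 17.3, 4.35 and 6.47 CPM in YAP1-MAMLD1-dR3R1 and 4.23, 17 and 12.4 CPM in naive libraries. Of 12 partners in basement membranes, such as laminins and nidogens, 8 were higher in YAP1-TFE3 (beside 40.6% of all genes), 8 in YAP1-FAM118B tumours (21.3%) and 9 in YAP1-MAMLD1-dR3R1 (34.4%). Of 9 tested collagen receptors 7 were higher in each group, beside 40.6%, 21.3% and 34.4% of all genes in the same order. Among them was Ddr2, a collagen-binding receptor kinase, at 297, 246 and 307 CPM in YAP1-TFE3, 66.6, 38.8 and 112 CPM in YAP1-FAM118B, 128, 107 and 167 CPM in YAP1-MAMLD1-dR3R1 and 7.02, 14.9 and 11 CPM in naive libraries. Of 7 tested genes for collagen breakdown, 4, 6 and 3 were higher in the order YAP1-TFE3, YAP1-FAM118B, YAP1-MAMLD1-dR3R1. These are 57.1%, 85.7% and 42.9% of the list, beside 40.6%, 21.3% and 34.4% of all genes. Mmp2, a gelatinase, was highest in YAP1-TFE3, at 1423, 917 and 870.4 CPM, against 457, 144 and 649.7 CPM in YAP1-FAM118B, 258, 467 and 375 CPM in YAP1-MAMLD1-dR3R1 and 4.27, 3.73 and 3.39 CPM in naive libraries.

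Promoters of members that moved together were set side by side because they share or differ in response: Col3a1 and Col8a1 were raised in YAP1-FAM118B and YAP1-MAMLD1-dR3R1 but not called in YAP1-TFE3, Col7a1 was raised in all tumours, and Col10a1 in YAP1-FAM118B. The sequences are RefSeq's, assembly GRCm38.p6, the 250 bases before the annotated start of each gene, 5′ to 3′ on the gene's strand, with matches to the motifs searched in capitals.
Col3a1, chr1:45311288-45311537, plus strand: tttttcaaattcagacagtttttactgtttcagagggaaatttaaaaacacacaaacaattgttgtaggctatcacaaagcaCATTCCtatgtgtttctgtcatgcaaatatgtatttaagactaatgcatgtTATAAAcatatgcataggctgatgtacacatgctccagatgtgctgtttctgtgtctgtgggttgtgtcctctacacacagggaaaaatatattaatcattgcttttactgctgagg
Col8a1, chr16:57754738-57754987, minus strand: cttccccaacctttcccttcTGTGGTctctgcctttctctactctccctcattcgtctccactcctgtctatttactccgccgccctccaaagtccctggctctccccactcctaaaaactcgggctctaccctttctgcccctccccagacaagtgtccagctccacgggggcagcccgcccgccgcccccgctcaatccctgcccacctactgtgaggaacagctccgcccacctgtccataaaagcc
Col7a1, chr9:108953336-108953585, plus strand: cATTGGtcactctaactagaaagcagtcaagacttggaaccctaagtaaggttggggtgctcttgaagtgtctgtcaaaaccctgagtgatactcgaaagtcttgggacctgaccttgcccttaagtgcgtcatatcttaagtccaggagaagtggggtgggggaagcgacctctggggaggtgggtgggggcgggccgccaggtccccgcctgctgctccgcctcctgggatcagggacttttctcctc
Col10a1, chr10:34389731-34389980, plus strand: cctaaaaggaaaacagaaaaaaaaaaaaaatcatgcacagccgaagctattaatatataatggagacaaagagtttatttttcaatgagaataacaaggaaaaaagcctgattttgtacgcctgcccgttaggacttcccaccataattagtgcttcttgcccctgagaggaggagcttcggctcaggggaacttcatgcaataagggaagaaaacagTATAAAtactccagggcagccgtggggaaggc
The letters GGAATG were searched on both strands for TEAD factors. The letters CACGTG were searched for MiT/TFE factors, TGANTCA stood for AP-1 and CCAAT for the CCAAT box. TGTGGT stood for RUNX factors and TATAAA for the TATA box, and none of these spellings contains another. Col3a1 holds a TEAD match on the other strand that begins 168 bases before the start and TATAAA at 117 bases, Col8a1 a RUNX match at 230 bases, Col7a1 a CCAAT match on the other strand at 249 bases, and Col10a1 TATAAA at 32 bases. A promoter window of 300 bases was found for 35 of 44 members, 38 windows in all. TEAD letters stood in 13.2% of these windows and in 14.7% of all 32851 windows, MiT/TFE letters in 0% and 7.15%, AP-1 letters in 2.63% and 7.81%, CCAAT in 34.2% and 37.4%, RUNX letters in 7.89% and 16.8%, and TATAAA in 13.2% and 13.6%. The 250 bases before Col6a2, called in the same tumours as Col3a1 and Col8a1, were also searched. That stretch held no match and is not printed, though the 300-base window of Col6a2 held TEAD letters. A match here describes letters and not binding.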

How the data were processed

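RNA-seq of 12 mouse libraries was analysed from raw read counts per gene, which the authors deposited as 1 table a library; the counts were made with HTSeq on mm10, per the submitters' processing notes. For aligner, annotation and strand setting the entry is "not given in the sources used here", and reads of overlapping or antisense genes cannot be told apart.

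Libraries were grouped by their labels. All 4 groups entered 1 fit in edgeR 4.0.16 (R 4.3.3, limma 3.58.1), with genes kept by filterByExpr at a minimum count of 10, TMM scaling and the quasi-likelihood test, for 6 comparisons. Adjusted p-values are Benjamini-Hochberg over all 16364 genes tested, with a threshold of 0.05. CPM uses the TMM-scaled library size. The code was tested on simulated data with 200 changed genes. Levels per kb and exon overlaps used GENCODE annotation of GRCm38, and promoter letters RefSeq's GRCm38.p6 table. Alternatives were RLE and library-size scaling, other filters, robust dispersion, a test against a 2-fold change, only the groups compared, a replicate block, DESeq2 1.42.0 and leaving out libraries.

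Values were given per library for up to 4 members a class with the highest mean, and for members called against their class or set apart in 1 fusion; further members are given by range or were named after their values were seen. Members and lists were chosen with earlier results of these data known. Replicates of a group differed far beyond counting noise, so none was treated as a copy. Ratios of 1 to 3 counts have exact 95% intervals.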

Additional observations from a re-analysis of the deposited data

Results flagged for a closer look

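Col24a1, a minor fibrillar chain, was flagged because its changes against naive cortex ran in opposite directions in a pair of tumour groups and the difference itself passed a test. Col24a1 was at 0.0482, 0.0887 and 0 CPM in YAP1-TFE3, 4.64, 2.64 and 2.26 CPM in YAP1-FAM118B, 0.505, 0.290 and 0.0887 CPM in YAP1-MAMLD1-dR3R1 and 0.575, 0.419 and 0.528 CPM in naive libraries. YAP1-TFE3 tumours differed from YAP1-FAM118B tumours by -5.95 ± 0.84 on the log2 scale (edgeR quasi-likelihood test, Benjamini-Hochberg adjusted p = 3.68e-04), and no library of either group overlapped the other. The fitted value rests on 3 counts in YAP1-TFE3 against 225 in YAP1-FAM118B, a ratio of 0.0144 (95% counting interval 0.00294 to 0.0425). Against naive cortex, the YAP1-FAM118B call held in 10 of 16 alternatives and the YAP1-TFE3 call in all 16.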

How the results depend on the processing

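Counts of called collagens against naive cortex stayed within 1.5 times under the alternatives run, except that 3 genes were lower in YAP1-FAM118B with only the groups compared. With 1 library of the groups compared left out, the counts against naive were 15 to 17 higher and 4 to 5 lower in YAP1-TFE3, 24 to 26 and 0 in YAP1-FAM118B, and 26 to 29 and 2 in YAP1-MAMLD1-dR3R1, and with 1 of all 12 libraries left out 12 to 18 were called alike in every fusion. YAP1-TFE3 against YAP1-FAM118B gave 3 to 4 higher and 21 to 25 lower, and DESeq2 gave 5 higher. YAP1-TFE3 against YAP1-MAMLD1-dR3R1 gave 3 to 6 and 18 to 23, and 3 and 14 in the test against a 2-fold change. YAP1-FAM118B against YAP1-MAMLD1-dR3R1 gave 2 to 7 and 1 to 4, 0 and 0 in the test against a 2-fold change, 8 higher by DESeq2, and 1 lower without naive replicate 2 and YAP1-FAM118B replicate 2, the mixed-signal pair. The test against a 2-fold change also dropped calls against naive of Col15a1, Col2a1, Col6a4 and Col6a6 in YAP1-TFE3, Col24a1 and Col27a1 in YAP1-FAM118B, and Col6a3, Col11a2 and Col13a1 in YAP1-MAMLD1-dR3R1. The cause was not tested.

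Differences from naive in YAP1-TFE3 that were not called changed sign for Col8a1, Col6a1 and Col6a2. Col8a1 was -0.18 without YAP1-TFE3 replicate 2, and up to 1.33 with another library left out. Col6a1 was 0.37 without the mixed-signal pair and 0.37 without naive replicate 2, and down to -0.97 with another left out. Col6a2 was -0.035 with RLE factors, -0.062 with library size only, -0.046 with no filter beyond 1 count, -0.083 with at least 1 CPM in 3 libraries, -0.080 with only the groups compared, -0.037 with DESeq2, -0.24 with the replicate block, and between -0.99 and -0.14 without YAP1-TFE3 replicate 3 or naive replicate 1, and up to 0.30 with another left out.

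Deviations from the group mean were correlated between libraries of the same replicate number in different groups, and the values ran from -0.11 to 0.32. Libraries of different numbers were not correlated for comparison, so these values cannot tell whether the numbers pair the samples. With the replicate block the counts were 17 higher and 4 lower in YAP1-TFE3, 26 and 0 in YAP1-FAM118B, and 28 and 2 in YAP1-MAMLD1-dR3R1 against naive, 4 and 4 for YAP1-FAM118B against YAP1-MAMLD1-dR3R1, 5 and 21 for YAP1-TFE3 against YAP1-MAMLD1-dR3R1, 3 and 23 for YAP1-TFE3 against YAP1-FAM118B, and 14 alike in every fusion.

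Of 155 fold changes followed, 76 moved by over 1.5-fold when 1 library of the groups compared was left out, and 28 calls were lost that way. For the lists of processing genes, partners, receptors and breakdown genes, counts against naive were followed under every alternative. Of these, 31 moved by over 1.5 times or to or from 0, and 545 did not. The median of all genes for YAP1-TFE3 against naive was 0.23 with TMM and 0.03 with library size only. Chains near 3 counts a library cannot be ranked at this depth.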
